A study of Mus musculus with 5 samples.

Results

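The ERBB family of growth factor receptors was examined in adult mouse optic nerve exposed *ex vivo* to LY294002, an inhibitor of PI3K, at a low concentration (L-LY29) or a high one (H-LY29). The 10 genes chosen were the receptors *Egfr*, *Erbb2*, *Erbb3* and *Erbb4*, the ligands *Nrg1*, *Hbegf*, *Btc*, *Tgfa* and *Areg*, and the receptor inhibitor *Errfi1*. All probe sets that the array annotation paired with 1 of these genes alone were taken. This gave 21 probe sets of 9 genes, of 45101 probe sets on the array and 18194 genes with a probe set. *Areg* was paired with no probe set in the annotation used and has no value here. Nerves from C57BL/6 mice of P35 to P45 were kept for 3 days in organotypic culture with the drug, and RNA of the whole nerve was hybridised to 3 L-LY29 arrays and 2 H-LY29 arrays. The labels give 0.5 µM for L-LY29 and 50 µM for H-LY29. The paper's methods, and its caption for the array heatmap, name a higher low dose for adult nerves. Which of these the arrays received was not settled, so the gap in dose may be smaller than the labels give. The sample titles name the compound LY294002, and the treatment fields spell it LY295002. Both groups carried the drug and saline arrays were not analysed here, so every difference is L-LY29 minus H-LY29 and none is a change from an untreated nerve. No source used here says which mice or nerves went into which array, so p-values reflect the spread from array to array, which may be technical.

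The ERBB receptors are tyrosine kinases that pair on ligand binding and signal through the RAS-ERK cascade and through PI3K, the enzyme that LY294002 inhibits. EGFR binds EGF, TGF alpha, amphiregulin, HB-EGF, betacellulin, epiregulin and epigen, whereas neuregulins bind ERBB3 and ERBB4. ERBB2 binds no known ligand and ERBB3 has a weak kinase, so both act mainly through a partner. In white matter, EGFR signalling is known for its part in progenitor proliferation and in reactive astrocytes, and neuregulin signalling through ERBB receptors for its part in glial development and myelination.

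RefSeq promoter windows (GRCm38.p6) were available for 7 of the 10 genes, in 8 windows. The 250 bases before the start site of *Tgfa* (chr6:86194972-86195221, plus strand) and of *Egfr* (chr11:16751953-16752202, plus strand) are shown because these are the ligand and the receptor with the largest differences between the doses among the 10 genes chosen. The second start site of *Errfi1* (chr4:150854820-150855069, plus strand) is shown because it was the only window of a gene with a probe set that held a cyclic AMP response element. Capitals mark the SP1 box GGGCGG, which reads CCGCCC where it lies on the opposite strand, and the cyclic AMP response element TGACGTCA.
Tgfa: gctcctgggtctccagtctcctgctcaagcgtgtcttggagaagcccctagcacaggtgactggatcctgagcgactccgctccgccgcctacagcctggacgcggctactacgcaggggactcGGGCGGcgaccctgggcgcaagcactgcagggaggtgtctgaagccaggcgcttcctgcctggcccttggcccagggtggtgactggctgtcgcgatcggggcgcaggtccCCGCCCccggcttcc
Egfr: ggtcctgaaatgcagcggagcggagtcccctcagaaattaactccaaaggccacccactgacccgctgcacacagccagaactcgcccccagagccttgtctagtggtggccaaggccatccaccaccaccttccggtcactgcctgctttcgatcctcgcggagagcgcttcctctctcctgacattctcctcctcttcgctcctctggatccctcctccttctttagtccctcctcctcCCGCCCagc
Errfi1: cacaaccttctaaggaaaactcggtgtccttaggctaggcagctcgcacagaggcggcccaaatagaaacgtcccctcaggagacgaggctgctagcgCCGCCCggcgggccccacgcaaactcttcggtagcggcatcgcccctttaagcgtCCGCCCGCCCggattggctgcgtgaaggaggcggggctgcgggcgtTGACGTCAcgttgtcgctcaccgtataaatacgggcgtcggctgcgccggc
The *Tgfa* window held 2 SP1 boxes, 126 and 15 bases before its start site, and the *Egfr* window held 1, 9 bases before its own. The annotated *Tgfa* gene begins at 86195038, so the *Tgfa* start site used here and both of its SP1 boxes lie inside the gene. The *Errfi1* window held the response element 51 bases before the start and 3 SP1 boxes, 152, 97 and 93 bases before it, the last 2 of which overlap. Searched on both strands of 32851 windows of the same length, the SP1 box was in 32.7% and the response element in 1.55%. The core forkhead (FOXO) motif GTAAACA, the AP-1 motif TGANTCA and the EGR motif GCGNGGGCG were in none of the 8 windows, against 3.17%, 6.75% and 4.7% of all windows. These matches are letters in a window and were not tested as binding sites.

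The arrays of the 2 doses differed in more than the family. Array medians lay between 5.33 and 5.35 log2 units for L-LY29 arrays and between 5.54 and 5.56 for H-LY29 arrays. The 24 poly-A control probe sets, which detect RNAs added during labelling, averaged between 9.97 and 10.45 in L-LY29 and 3.17 on both H-LY29 arrays. The signal of 3′ over 5′ probe sets for actin lay between 0.39 and 0.48 log2 units in L-LY29 and between 0.84 and 0.99 in H-LY29. For *Gapdh* it lay between -0.15 and -0.09 in L-LY29 and between 0.65 and 0.73 in H-LY29. These measures, including those of RNAs added at labelling, split the arrays by dose, and no label names a batch. Dose and set of arrays therefore cannot be told apart in this design. Myelin genes, the defining markers of oligodendrocytes, averaged between 12.90 and 12.97 on L-LY29 arrays, against 12.70 to 12.87 on H-LY29 arrays. Of the 4 measured, *Mbp* (0.35), *Mag* (0.89) and *Mobp* (0.55) were higher in L-LY29 and *Mog* (-1.13) was lower.

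Of the 21 probe sets, 16 passed the filter on low signal and were tested. The test called 7 higher and 5 lower in L-LY29 and did not call the other 4 (limma, Benjamini-Hochberg adjusted p under 0.05). Over all 27001 probe sets tested, 71.8% were called, 28.9% as higher and 42.9% as lower, so the share of family probe sets called was close to that of the array as a whole. The median difference over all tested probe sets was -0.18, and quantile normalization moved it to 0.14 and equal array medians to 0.03. The share of called probe sets that were higher was 40.2%, against 55.4% after quantile normalization, 50.3% with equal array medians and 48.6% with no filter. The family then had 10 higher and 4 lower after quantile normalization, 9 and 5 with equal medians, and 9 and 6 of 21 with no filter. No called family probe set changed direction under these or any other alternative. The calls gained with no filter were of dim probe sets of *Egfr*, *Erbb3* and *Nrg1* that the filter had left out. The filter was a mean over the 5 arrays of 4.77 log2 units. The *Egfr* probe set 1432647_at lay just inside it at 4.92, through its L-LY29 signal alone, and 1451530_at just outside at 4.53. Without 1432647_at the count was 6 higher and 5 lower of 15.

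**Figure D1:**
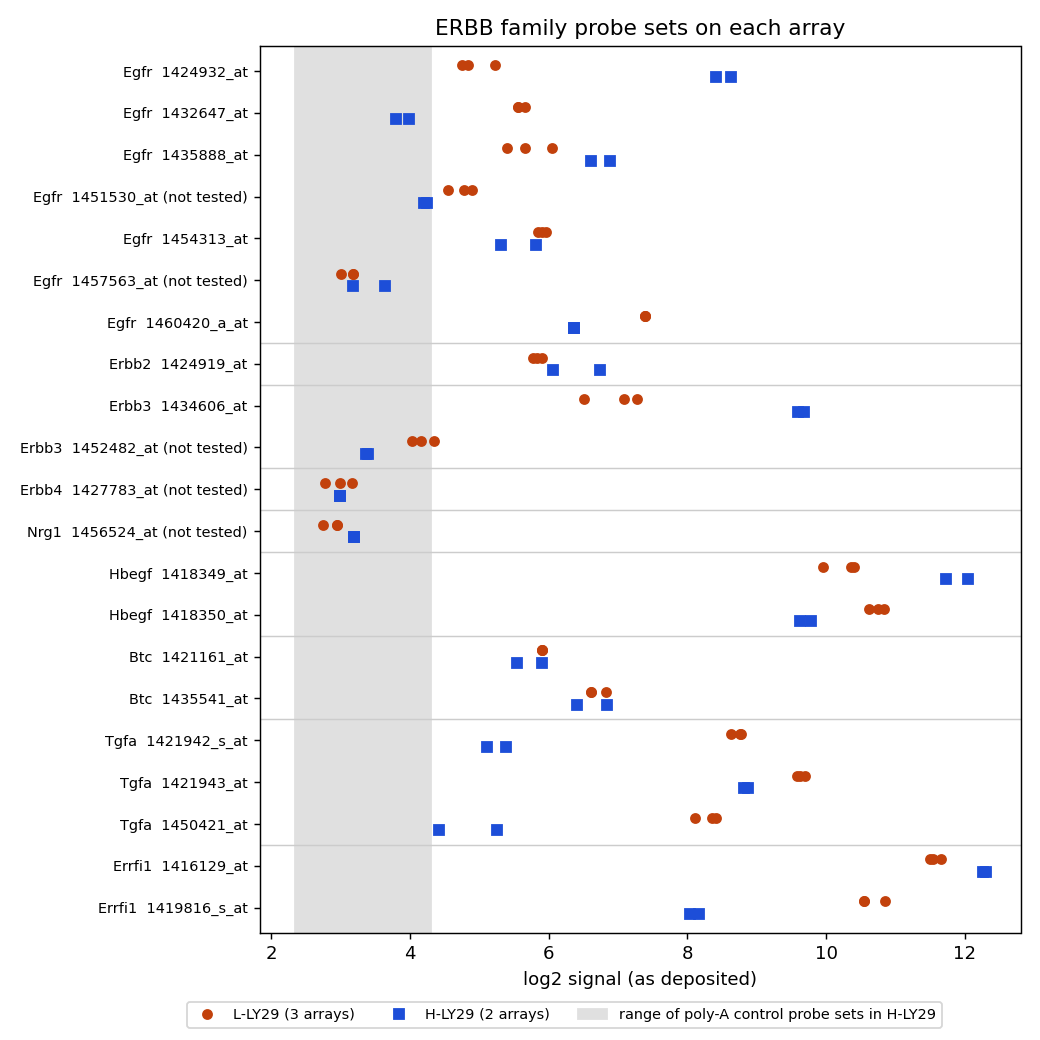
Signal of the 21 probe sets of the ERBB family on each array, in log2 units as deposited (x axis), with L-LY29 arrays as circles above H-LY29 arrays as squares. The grey band, 2.34 to 4.30, is the range of poly-A control probe sets in H-LY29, and the *Erbb4* and *Nrg1* probe sets lie within it at both doses.

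*Egfr*, the receptor of EGF and TGF alpha, was read by 7 probe sets that did not move together. Probe set 1424932_at had 5.23, 4.84 and 4.75 log2 units in L-LY29, against 8.63 and 8.42 in H-LY29. Every L-LY29 array lay far below both H-LY29 arrays, a 12-fold difference (-3.59, SE 0.18, limma adjusted p = 8.467e-05). It was the largest difference of any family probe set in the main test. The L-LY29 mean of 1424932_at, 4.94, lay just above the filter of 4.77, so the size of this difference is less certain. Probe set 1435888_at went the same way, with 5.41, 6.05 and 5.66 in L-LY29 and 6.88 and 6.61 in H-LY29 (-1.04, SE 0.22, adjusted p = 0.009418). With 1 H-LY29 array left the difference was similar but not called (-0.90, adjusted p = 0.1015 without replicate 1, and -1.18, adjusted p = 0.06004 without replicate 2). The call was also lost after quantile normalization (-0.62, adjusted p = 0.05598).

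The other tested *Egfr* probe sets had higher means in L-LY29. Probe set 1432647_at had 5.66, 5.57 and 5.57 in L-LY29 and 3.99 and 3.80 in H-LY29, with both H-LY29 values inside the range of the poly-A control probe sets. It passed the filter only through its L-LY29 signal and left the test whenever an L-LY29 array was left out, so its call is not read as a result. Probe set 1460420_a_at stood at 7.39 on all 3 L-LY29 arrays and at 6.37 on both H-LY29 arrays (1.02, SE 0.08, adjusted p = 0.0002638). Its values were equal to the last digit within each dose, so it has no measured spread and its standard error comes from the other probe sets of the array. Such equality was met within both doses in 102 of the 27001 tested probe sets. At least 1 pair of arrays was equal in 7 of the 21 family probe sets (33.3%) and in 46.3% of all probe sets, and in 4 of the 16 tested family probe sets and 37.6% of all those tested, which is unusual for continuous signals.

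Probe set 1454313_at had 5.91, 5.85 and 5.96 in L-LY29 and 5.32 and 5.82 in H-LY29, and did not pass (0.34, interval -0.11 to 0.78, adjusted p = 0.1366). Against a lone H-LY29 array it was 0.59 without replicate 2 (adjusted p = 0.007812) and 0.09 without replicate 1 (adjusted p = 0.2621), with the spread taken from the L-LY29 arrays alone. The 2 untested *Egfr* probe sets were dim. Probe set 1451530_at had 4.89, 4.78 and 4.56 in L-LY29 and 4.20 and 4.25 in H-LY29, without overlap, and 1457563_at had 3.01, 3.18 and 3.18 in L-LY29 and 3.64 and 3.18 in H-LY29, with overlap. The annotation lists the same source sequence for 1424932_at and 1451530_at, and another for 1432647_at and 1454313_at. The H-LY29 values of 1451530_at and 1432647_at lay within the range of the control probe sets, so the size of their differences is not set against that of their partners. The *Egfr* transcript part that each probe set reads was not determined here.

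*Erbb3*, the neuregulin receptor with the weak kinase, was lower in L-LY29 on its tested probe set. Probe set 1434606_at had 7.27, 6.52 and 7.09 in L-LY29, against 9.67 and 9.59 in H-LY29. The H-LY29 arrays were nearly alike and all L-LY29 arrays were below them, a 6.38-fold difference (-2.67, SE 0.24, adjusted p = 0.0004212). The second *Erbb3* probe set, 1452482_at, was below the filter, with 4.03, 4.17 and 4.35 in L-LY29 and 3.40 and 3.37 in H-LY29. With no filter it was called higher in L-LY29 (0.80, limma adjusted p = 0.003817), opposite to 1434606_at. All but the highest of its values lay within the range of the control probe sets, and no direction is read from it.

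*Erbb2*, the receptor without a ligand of its own, had 5.78, 5.84 and 5.91 in L-LY29 and 6.74 and 6.06 in H-LY29. The doses did not overlap, but the H-LY29 arrays were 0.67 apart and the difference did not pass (-0.56, interval -1.12 to -0.00088, adjusted p = 0.06742). Without H-LY29 replicate 2 it was -0.89 (adjusted p = 0.005439) and without replicate 1 it was -0.22 (adjusted p = 0.06859). With 1 H-LY29 array left, the L-LY29 arrays alone give the spread, which the lone array is assumed to share. *Erbb4*, the second neuregulin receptor, had 2.78, 3.00 and 3.17 in L-LY29 and 3.00 on both H-LY29 arrays. It was not tested, and no statement on dose is made from signals in the range of the control probe sets.

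*Tgfa*, the EGFR ligand TGF alpha, was the only gene of the family whose probe sets were all called in 1 direction where more than 1 was called. Probe set 1421942_s_at had 8.76, 8.77 and 8.63 in L-LY29, against 5.11 and 5.39 in H-LY29. The doses were widely apart and the arrays of each dose close together, an 11.1-fold difference (3.47, SE 0.12, adjusted p = 4.644e-05). Probe set 1450421_at had 8.41, 8.35 and 8.10 in L-LY29 and 4.43 and 5.26 in H-LY29, a 10.9-fold difference (3.45, SE 0.27, adjusted p = 0.0002763). Its H-LY29 mean, 4.84, lay just above the filter of 4.77, so the size of this difference is less certain. Probe set 1421943_at had 9.63, 9.58 and 9.70 in L-LY29 and 8.81 and 8.88 in H-LY29, a difference of 1.73-fold (0.79, SE 0.07, adjusted p = 0.0003568). All 3 are listed with the same source sequence, so they agree in direction and not in size. Over 12 alternatives each, the differences lay between 3.33 and 3.71, between 3.03 and 3.86 and between 0.76 and 1.15, all called.

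**Figure D2:**
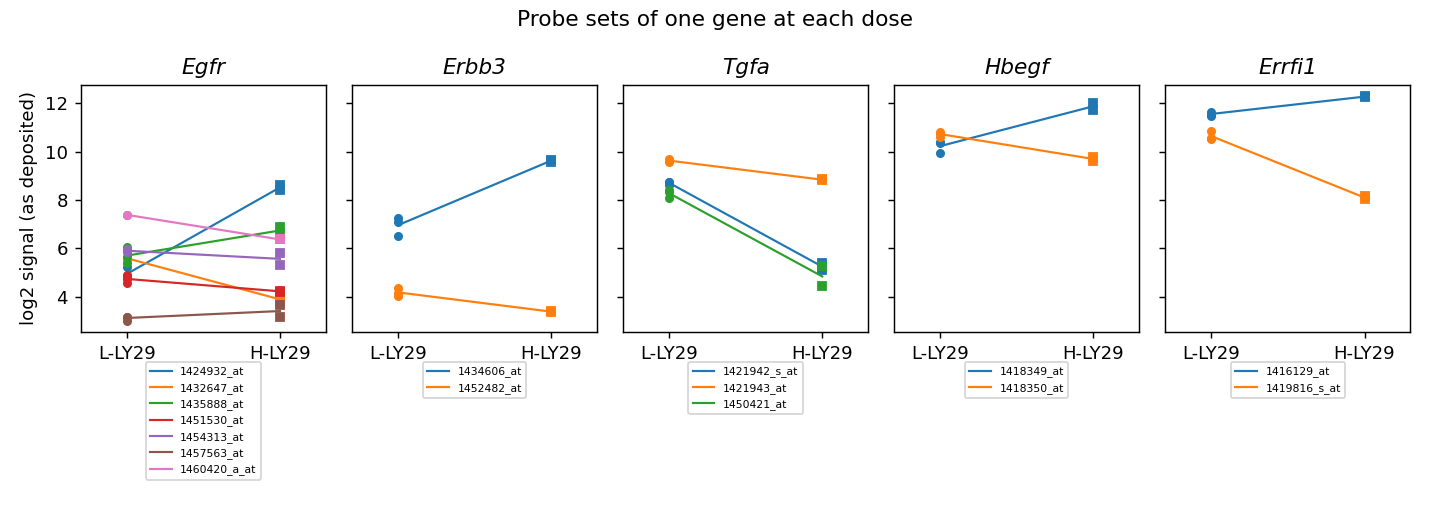
Log2 signal (y axis) of each probe set of *Egfr*, *Erbb3*, *Tgfa*, *Hbegf* and *Errfi1* in L-LY29 (circles, 3 arrays) and H-LY29 (squares, 2 arrays), with a line joining the means of each probe set. The 3 *Tgfa* lines lean the same way, whereas the lines of the other 4 genes cross or diverge.

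*Hbegf*, the EGFR ligand HB-EGF, gave opposite answers on its probe sets. Probe set 1418349_at had 10.35, 9.95 and 10.40 in L-LY29, against 11.73 and 12.04 in H-LY29, 3.14-fold lower (-1.65, SE 0.17, adjusted p = 0.0007201). Probe set 1418350_at had 10.84, 10.62 and 10.74 in L-LY29, against 9.62 and 9.79 in H-LY29, 2.04-fold higher (1.03, SE 0.09, adjusted p = 0.0004006). Neither overlapped between the doses, both were bright, both kept their call in all 12 alternatives, and both are listed with the same source sequence. No direction can therefore be given for *Hbegf* as a gene.

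*Btc*, the ligand betacellulin, was not called on either probe set in the main test. Probe set 1421161_at had 5.91 on all 3 L-LY29 arrays and 5.91 and 5.55 in H-LY29 (0.18, interval -0.17 to 0.53, adjusted p = 0.2795). Probe set 1435541_at had 6.61, 6.83 and 6.61 in L-LY29 and 6.40 and 6.85 in H-LY29 (0.06, interval -0.38 to 0.49, adjusted p = 0.7738). The doses overlapped on both, since H-LY29 replicate 1 equalled the L-LY29 arrays on the first, and the intervals allow differences of up to 0.53 log2 units. Both were called higher in L-LY29 after quantile normalization (0.50, adjusted p = 0.01288, and 0.56, adjusted p = 0.02468), and the first also with equal array medians (0.39, adjusted p = 0.04499). Without H-LY29 replicate 1 the first was 0.36 and called (adjusted p = 0.003662), and without replicate 2 it was 0. Whether *Btc* differed thus depends on the scaling and on 1 array. *Nrg1*, the neuregulin that binds ERBB3 and ERBB4, had 2.75, 2.94 and 2.94 in L-LY29 and 3.19 on both H-LY29 arrays. These values lay within the range of the control probe sets, and *Nrg1* was not tested in the main fit. With no filter it was called lower in L-LY29 (-0.31, limma adjusted p = 0.02544), and no direction is read from it.

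The remaining ligands of the family were taken from a list of 11. *Ereg*, the EGFR ligand epiregulin, had 5.41, 6.09 and 6.58 in L-LY29, against 9.45 and 9.61 in H-LY29. It was 11.3-fold lower in L-LY29 (-3.50, SE 0.35, adjusted p = 0.0006148), close in size to the differences of the 1421942_s_at and 1450421_at probe sets of *Tgfa* and opposite to them. *Ereg*, *Areg* and *Btc* are neighbours among the protein-coding genes of 1 chromosome, with *Epgn* beside them, yet *Ereg* was lower in L-LY29 and *Btc* was not called in the main test. The *Nrg2* probe set 1444491_at did not pass (0.10, adjusted p = 0.429) but did with equal array medians (0.31, adjusted p = 0.0495) and without H-LY29 replicate 1 (0.19, adjusted p = 0.007533). Without replicate 2 it was 0. The other 8 of 10 probe sets, of *Egf*, *Epgn*, *Nrg2*, *Nrg3* and *Nrg4*, were below the filter.

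*Errfi1*, also known as MIG6, encodes a protein that binds the EGFR kinase and blocks it. Probe set 1416129_at had 11.66, 11.50 and 11.54 in L-LY29, against 12.26 and 12.30 in H-LY29, 1.65-fold lower (-0.72, SE 0.06, adjusted p = 0.0003129). Probe set 1419816_s_at had 10.85, 10.55 and 10.55 in L-LY29, against 8.17 and 8.04 in H-LY29, 5.84-fold higher (2.55, SE 0.12, adjusted p = 7.394e-05). Both calls were kept in all 12 alternatives. The suffix of the second, which the 1421942_s_at probe set of *Tgfa* also carries, marks probes that can match more than 1 transcript, so both of these signals are less certain.

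**Figure D3:**
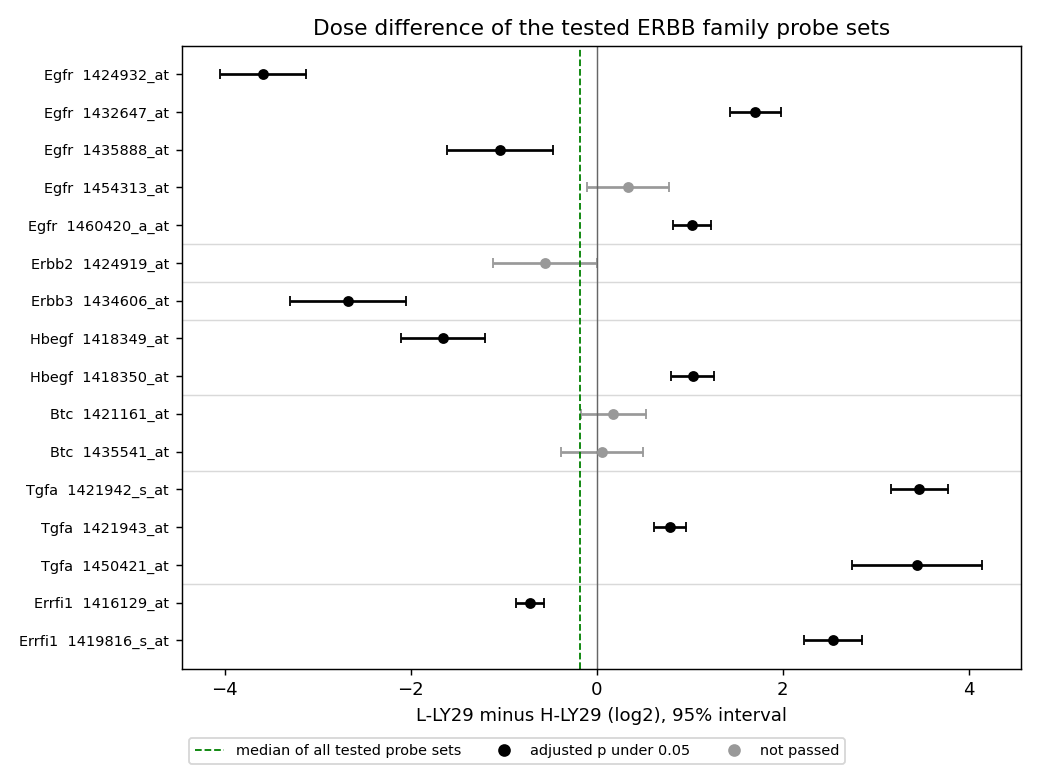
Difference of each tested family probe set, L-LY29 minus H-LY29 in log2 units (x axis), with its 95% interval from limma. Black points passed the test, grey points did not, and the dashed line is the median of all tested probe sets (-0.18). The points of *Egfr*, *Hbegf* and *Errfi1* lie on both sides of 0, and that of 1432647_at entered the test only through its L-LY29 signal.

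Of the 4 family genes with 2 or more called probe sets, 3 had calls in both directions (*Egfr*, *Hbegf* and *Errfi1*). On the whole array this was so for 1811 of 4182 genes (43.3%), so it is common here and the choice of probe set decides much. With the probe set of highest mean standing for its gene, 7 family genes were tested. *Egfr* (1.02) and *Tgfa* (0.79) were then higher in L-LY29, *Erbb3*, *Hbegf* and *Errfi1* lower, and *Erbb2* and *Btc* did not pass. With the mean of a gene's tested probe sets, *Egfr* was instead lower (-0.31, adjusted p = 0.01848), *Errfi1* higher (0.91, adjusted p = 0.0003912) and *Hbegf* no longer called (-0.31, adjusted p = 0.07368). The *Egfr* mean includes 1432647_at (1.70), which passed the filter only through its L-LY29 signal. Its size and adjusted p thus rest partly on a probe set that is not read as a result. *Tgfa* (2.57) kept its direction and its call under both rules. *Erbb3* (-2.67) had 1 tested probe set, so both rules gave the same value.

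The genes around the receptors were counted in 7 lists, with the probe set of highest mean for each gene. Over all 12935 genes tested, 73.8% were called, 27.1% as higher in L-LY29 and 46.6% as lower, with a median difference of -0.26. Of 131 listed genes, 111 were measured, of which 32 were higher, 58 lower and 21 did not pass, with a median of -0.43. These counts include *Cblc*, called higher (mean 3.93 in H-LY29), and *Shc3*, called lower (mean 4.54 in L-LY29). Each passed the filter only through the other dose, so their calls are not read as results. As many of the genes named below have other probe sets called the opposite way, their values are those of 1 probe set each.

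Receptor inhibitors and genes of receptor degradation, 22 of 22 measured, had 9 higher, 11 lower and a median of -0.37. The phosphatase gene *Ptpn1*, whose product dephosphorylates EGFR, averaged 9.58 in L-LY29 and 6.98 in H-LY29 (2.60, adjusted p = 7.082e-05). *Eps15*, which acts in receptor endocytosis, was higher by 1.02 and *Usp8*, a deubiquitinase that spares EGFR from degradation, by 1.46. *Lrig2*, of a family of receptor-binding membrane proteins, averaged 5.85 in L-LY29 and 10.15 in H-LY29 (-4.30, adjusted p = 6.5e-05). *Cblb*, a ubiquitin ligase of activated EGFR, was lower in L-LY29 (-2.81), and its other probe sets included 1 called higher and 1 called lower.

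Genes of ligand shedding, the release of ligands from their membrane-bound precursors, had 4 higher and 7 lower of 12 measured, with a median of -0.73. The tetraspanin gene *Cd9*, whose product associates with HB-EGF, averaged 12.52 in L-LY29 and 11.11 in H-LY29 (1.40, adjusted p = 0.0004449). *Rhbdf2*, which brings the protease ADAM17 to the cell surface, was higher by 1.39. *Adam17*, the sheddase of TGF alpha and amphiregulin, averaged 9.11 in L-LY29 and 10.14 in H-LY29 (-1.04, adjusted p = 0.0002303), with 1 of its other probe sets called higher and 1 lower. *Adam12* was lower in L-LY29 (-3.94) and *Adam9* higher (0.74).

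Adaptors and the RAS-ERK cascade, 27 of 36 measured, had 10 higher, 11 lower and a median of -0.01. The adaptor *Grb2*, which links the receptors to RAS, averaged 10.49 in L-LY29 and 9.63 in H-LY29 (0.87, adjusted p = 0.0001647), although another probe set of it was called lower. Its partner *Sos1*, the exchange factor of RAS, averaged 8.88 in L-LY29 and 10.70 in H-LY29 (-1.82, adjusted p = 6.5e-05). The phosphatase *Ptpn11* was higher (0.67), and *Plcg1* (-2.54) and the ERK-activated transcription factor *Elk1* (-3.32) were lower.

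The PI3K-AKT arm and the STATs, 19 of 21 measured, had 3 higher, 13 lower and a median of -0.72. *Pik3ca*, the alpha catalytic subunit of PI3K, averaged 8.56 in L-LY29 and 9.85 in H-LY29 (-1.29, adjusted p = 0.0001101). *Gsk3b* (-2.82), *Stat5a* (-3.97) and *Stat5b* (-1.65) were lower, although the other probe set of *Stat5b* was called higher. *Gsk3b* had 1 other probe set called higher and 2 called lower. *Akt2* (1.27) and *Stat3* (0.87) were higher, each with 2 other probe sets called higher. Genes that ERK signalling induces, 23 of 23 measured, had 4 higher, 13 lower and a median of -0.65. The immediate early gene *Egr3* averaged 6.83 in L-LY29 and 5.01 in H-LY29 (1.82, adjusted p = 0.0001323), and *Ier2* (1.11), *Junb* (0.67) and *Myc* (0.64) were higher too. The other probe set of *Egr3* was called lower. The ERK pathway inhibitor *Spred1*, with 5 further probe sets called lower, averaged 9.76 in L-LY29 and 11.58 in H-LY29 (-1.83, adjusted p = 6.771e-05). *Etv5* (-2.31) and *Ier3* (-1.32) were lower, and *Ccnd1* (-2.14) was lower while 2 of its other probe sets were called higher.

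**Figure D4:**
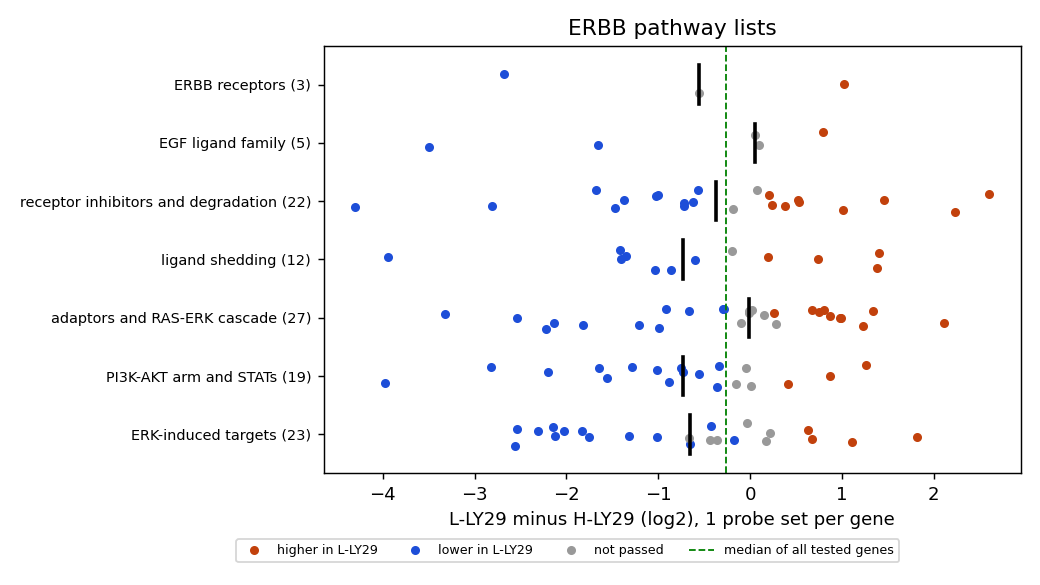
Difference of each measured gene of 7 ERBB pathway lists, L-LY29 minus H-LY29 in log2 units (x axis), with 1 probe set per gene and the number measured in parentheses. Black bars are list medians and the dashed line is the median of all tested genes (-0.26). Each list holds genes on both sides of 0.

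Markers of the cell types that the nerve and its attached tissue could hold also differed between the doses. In bulk RNA fewer cells of a type and less RNA per cell cannot be told apart. Of all genes tested, 27.1% were called higher in L-LY29 and 46.6% lower. The counts below come from small sets and are to be read against these shares. Markers of OPCs averaged 7.09 to 7.43 on L-LY29 arrays and 8.17 to 8.63 on H-LY29 arrays (3 of 4 lower), and those of astrocytes averaged 8.52 to 9.22 on L-LY29 arrays and 10.92 to 11.04 on H-LY29 arrays (4 of 5 lower). Markers of fibroblasts averaged 7.92 to 8.52 on L-LY29 arrays and 11.04 to 11.44 on H-LY29 arrays (4 of 4 lower), and those of pericytes 5.02 to 5.72 on L-LY29 arrays and 7.53 to 7.55 on H-LY29 arrays (2 of 3 lower). The pericyte marker *Kcnj8*, called lower, averaged 4.33 in L-LY29 and passed the filter only through its H-LY29 signal. Its call is not read as a result. The marker means of OPCs, astrocytes, fibroblasts and pericytes (*Kcnj8* included) ran the same way as *Erbb3*, *Ereg* and the 1424932_at probe set of *Egfr*. Those of oligodendrocytes, microglia, endothelium, retina and ocular surface epithelium ran the other way. With 46.6% of all genes tested called lower in L-LY29, a shared direction is common here. Markers of microglia averaged 8.48 to 8.50 on L-LY29 arrays and 7.57 to 7.84 on H-LY29 arrays (4 of 5 higher, 1 lower), and those of endothelium 7.32 to 7.73 on L-LY29 arrays and 6.31 to 6.43 on H-LY29 arrays (2 of 3 higher). Markers of retina averaged 6.71 to 6.84 on L-LY29 arrays and 6.26 to 6.65 on H-LY29 arrays, with 1 of 3 measured higher and 1 lower. The only measured Schwann cell marker of 3 was lower, at 11.69 to 11.92 on L-LY29 arrays and 12.28 to 12.31 on H-LY29 arrays.

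Markers of the ocular surface epithelium, a tissue that also makes EGFR ligands, averaged 8.15 to 10.76 on L-LY29 arrays and 3.95 to 4.33 on H-LY29 arrays. Of the 7, 6 were called higher, against 27.1% of all genes tested. Of these, *Krt6b*, *Asprv1*, *Calml3* and *Psca* averaged 4.29, 3.83, 2.82 and 3.54 in H-LY29. They passed the filter only through their L-LY29 signal, so their calls are not read as results. The keratin genes *Krt12* (12.20, 9.73 and 11.02 in L-LY29, against 4.56 and 5.26 in H-LY29) and *Krt5* (10.98, 7.72 and 8.44 in L-LY29, against 5.39 and 4.59 in H-LY29) were highest on L-LY29 replicate 1 and lowest on replicate 2. The mean of all 7 markers, with *Krt6b*, *Asprv1*, *Calml3* and *Psca* included, spanned 2.61 log2 units over the L-LY29 arrays. The part of any of these cell types in the differences of the ERBB family was not tested.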

How the data were processed

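Total RNA of whole cultured nerves was extracted with Trizol and RNeasy columns, labelled as biotinylated cRNA and hybridised to Affymetrix GeneChip mouse genome arrays. The authors read the images in GeneChip Operating Software and used the MAS-5 algorithm of GeneSpring to normalise them, and deposited log2 signals of 45101 probe sets per array. Many deposited values were equal between arrays to the last digit, at 1940 to 8963 probe sets for arrays of the same dose, so the algorithm behind the values is not certain. Arrays have no read depth, and their number limits the precision.

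Samples were grouped by their titles, and the values were used as deposited. Of the probe sets, 34958 were paired with 1 gene, 932 with several and 9211 with none, and 64 controls were left out of the tests. Probe sets with a mean under the 40th percentile (4.77) were left out, and the others were compared in R 4.3.3 by a two-sided limma test (version 3.58.1, eBayes with a trend on intensity), with Benjamini-Hochberg adjustment over all 27001 probe sets. Genes were fitted again with the probe set of highest mean, adjusted over 12935 genes. The fit was tested on simulated data. Named were every family probe set, the other EGF ligands and, of each other list, up to 4 genes per direction with the smallest adjusted p, of which the text gives a part. The members and the lists were chosen with earlier results of these data known. Alternatives were no filter, a filter at the 60th percentile, a floor at the 30th, quantile normalization, equal array medians, no trend, a replicate block, each array left out, and other rules for genes with several probe sets.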

Additional observations from a re-analysis of the deposited data

How the results depend on the processing

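The numbers of family probe sets called higher (7) and lower (5) stayed within 1.5 times under every filter, floor, scaling, trend and block tried, from 6 to 10 higher and from 4 to 6 lower, and leaving out single arrays gave 6 to 8 higher and 4 to 5 lower. With 1 probe set per gene they were 2 and 3 of 7, beyond 1.5 times. Lower calls then outnumbered higher ones, with the probe set of highest mean standing for each gene. All probe sets called ranged from 13789 of 17985 with the filter at the 60th percentile to 26525 of 45037 with none, and from 17471 to 19350 with an array left out. Pathway genes called ranged from 78 to 92, against 90. The 1435541_at probe set of *Btc*, not called at 0.06, changed sign to -0.01 without L-LY29 replicate 2 and to -0.16 without H-LY29 replicate 1, and to a call at 0.56 after quantile normalization, and was 0.28 without H-LY29 replicate 2. The 1454313_at probe set of *Egfr* was called after quantile normalization (0.63) and with equal medians (0.55). A block for the replicate number left 7 higher and 5 lower and called 17108 probe sets. Arrays of the same number correlated at 0.02 and 0.05 in their deviations, so the numbers were not taken as pairs. The cause of these shifts was not tested. With 3 and 2 arrays, the precision for small differences was low, and probe sets near the control range carry no firm reading.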
